A study of Homo sapiens with 20 samples.

Results

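The dual-specificity MAPK phosphatases described here are 8 genes of a table of 19962, namely DUSP1 (ENSG00000120129), DUSP2 (ENSG00000158050), DUSP4 (ENSG00000120875), DUSP5 (ENSG00000138166), DUSP6 (ENSG00000139318), DUSP8 (ENSG00000184545), DUSP10 (ENSG00000143507) and DUSP16 (ENSG00000111266). The rule takes them by gene identifier and uses no value, and they were proposed with earlier results of these data known. The measurements are PAR-CLIP libraries of IGF2BP3, an RNA-binding protein, in HCT116, a human colorectal carcinoma line that here carries Tet-OsTIR1. In PAR-CLIP the uridine analogue 4-thiouridine is built into RNA, ultraviolet light links it to bound protein, and linked positions appear as T-to-C conversions in the reads. The label was 100 µM 4-thiouridine, kept on all cells over 15 h, and the light was of 365 nm at 0.15 J/cm2. The endoplasmic reticulum was stressed with tunicamycin (TM), which blocks N-linked glycosylation, in a dose of 5 µg/mL, over 1 h or over 4 h, and the vehicle was DMSO for 4 h, so that both times share a 4 h control. Oxidative stress was given as 250 µM arsenite for 2 h, with PBS for 2 h as the vehicle. The sample titles say arsenite where the treatment text says arsenate. Each of the 5 conditions had 3 anti-IGF2BP3 libraries and 1 IgG library.

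These phosphatases remove phosphate from both the tyrosine and the threonine of the activation loop of MAP kinases and so switch the kinases off. DUSP1, DUSP2, DUSP4 and DUSP5 are nuclear enzymes whose genes are induced quickly by growth factors or stress. DUSP6 is cytoplasmic and selective for ERK, and DUSP8, DUSP10 and DUSP16 act mainly on JNK and p38. The mRNAs of several of them are short-lived, and many are themselves made in response to ERK signalling, as a negative feedback.

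The anti-IGF2BP3 libraries held 130478 to 1568406 counts over all genes and the IgG libraries 5981 to 17503. PBS replicate 2 was the shallowest. Colorectal epithelial markers were present among the called clusters for 6 of 6 genes (EPCAM and KRT8 among them), fibroblast and endothelial markers for 0 of 6, and leukocyte markers for 1 of 5, CD68. The labels do not say whether the 3 libraries of a group came from separate cultures, so the p-values measure only the spread between these libraries. Counts from a CLIP library rise with the amount of an RNA in the cells as well as with its binding, and these cannot be told apart here, nor can fewer cells from less RNA per cell. DMSO replicate 3 stood apart from the other DMSO libraries for several members, with a summed level of the members of 1290 CPM (counts-per-million of the library total) against 697 and 659. By the library names it belongs to another set than replicates 1 and 2, as do replicates 3 of both TM groups, so results against DMSO are also given without it or library by library.

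The recovered sequences are shown first, for the stretch of a gene that clusters covered in the most of its libraries. Each is a 30-base window that lay inside called clusters of as many libraries as possible, on GRCh38, read 5′ to 3′ on the strand of the transcript. Capitals mark the words CATA, CATC and CATT, which contain the CA-rich core that IGF2BP proteins are known to prefer, and ATTTA, the core of AU-rich elements. Among them are the windows of the genes that responded most to arsenite (DUSP1 and DUSP2), of DUSP5, whose windows were covered in the most libraries of those shown, and of DUSP6 and DUSP16. No window is printed for DUSP4.
DUSP1 (chr5:172768550-172768579, minus strand): cagcaCATTcgggaccaatatatagtgggt
DUSP2 first window (chr2:96143196-96143225, minus strand): tATTTAtacagaaCATTcaggatatgtcaa
DUSP2 second window (chr2:96143781-96143810, minus strand): ctgcctgcctgccccactgtgctggcagga
DUSP5 first window (chr10:110510482-110510511, plus strand): agactcatggaCATTtCATAcctgtgcaat
DUSP5 second window (chr10:110511086-110511115, plus strand): tcttagtCATActtgaacttgtctCATTcc
DUSP6 (chr12:89348529-89348558, minus strand): gatgaCATCtttacggacactattatcact
DUSP16 (chr12:12474793-12474822, minus strand): gtaacagttcaccacttccagagtgtggtc
The DUSP5 windows lay inside clusters of 14 and 13 of the 15 anti-IGF2BP3 libraries, while that of DUSP1 was covered in 6 and both of DUSP2 in 4. The DUSP1 window was covered in 3 arsenite, 1 DMSO and 2 TM 4 h libraries and in no PBS library, and the DUSP2 windows in 3 arsenite libraries and 1 DMSO library. Both DUSP5 windows hold CATT and CATA, the first DUSP2 window holds ATTTA and CATT, and the second DUSP2 window and that of DUSP16 hold none of these words.

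Under arsenite 4 of the 6 members that could be tested rose, by 14.8-fold for DUSP2, 9.32-fold for DUSP1, 2.15-fold for DUSP5 and 1.61-fold for DUSP6. The nuclear inducible enzymes DUSP1 and DUSP2 stood among the tested genes with the largest rises. DUSP4, also nuclear and inducible, did not pass the test. By edgeR (quasi-likelihood, p-values adjusted after Benjamini and Hochberg), 17.6% of 6642 genes were higher under arsenite and 34.8% changed in either direction, against 4 members higher and 0 lower of 6. DUSP8 and DUSP10 did not pass the filter on low counts and were not tested. DUSP1 and DUSP2 passed that filter only through their arsenite libraries, where they were high. Their ranks and their part in the 4 of 6 are therefore descriptions and no added support. The median log2 fold change was 0.90 over the 6 tested members and 0.00 over all tested genes.

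DUSP2, a phosphatase of ERK, JNK and p38 best known from activated leukocytes, had 21.9, 39.7 and 20.4 CPM (here also scaled by the TMM factor of each library) in the PBS libraries and 322, 313 and 400 under arsenite. Every arsenite library was far above every PBS library, and above all libraries of the other conditions. The log2 fold change was 3.89 (SE 0.22, edgeR adjusted p = 4.4e-37), the 9th highest of 6642 genes. The PBS values came from 9, 5 and 8 counts, so the size of the rise and its rank rest on few control counts.

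DUSP1, the founding member of the family and the phosphatase of p38 and JNK that limits stress and inflammatory signals, had 31.7, 23.8 and 22.9 CPM in PBS and 294, 241 and 240 under arsenite. The groups were separated by a wide gap. The PBS values came from 13, 3 and 9 counts, so here too the size of the rise and its rank rest on few control counts. The log2 fold change of DUSP1 was 3.22 (SE 0.23, edgeR adjusted p = 1.6e-27), the 14th highest of all tested genes.

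DUSP5, which binds and inactivates ERK in the nucleus, had 285, 358 and 237 CPM in PBS and 604, 682 and 524 under arsenite. The lowest arsenite library lay well above the highest PBS library. It rose by 1.11 on the log2 scale (SE 0.11, edgeR adjusted p = 1.6e-16). The calls of DUSP1, DUSP2 and DUSP5 held in all 11 alternative settings.

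DUSP6, the cytoplasmic ERK phosphatase, had 63.4, 79.5 and 120 CPM in PBS and 147, 137 and 147 under arsenite. The groups did not overlap, but PBS replicate 3 came near the arsenite libraries. On the log2 scale the rise was 0.69 (SE 0.19, edgeR adjusted p = 0.0026). Without PBS replicate 1 it was 0.40 (edgeR adjusted p = 0.19), and under DESeq2 the adjusted p was 0.055. Reads of DUSP6 could also come from the read-through gene POC1B-DUSP6, which overlaps it.

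DUSP4, a nuclear phosphatase of ERK and JNK, had 305, 318 and 268 CPM in PBS and 299, 372 and 290 under arsenite. The groups overlapped, and the log2 fold change of 0.13 had a 95% interval from -0.11 to 0.36 (edgeR adjusted p = 0.43), which is below the changes of DUSP1, DUSP2 and DUSP5.

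Of the members that act mainly on JNK and p38, DUSP16 had 36.6, 31.8 and 38.2 CPM in PBS and 73.6, 45.2 and 48.1 under arsenite. The groups did not overlap, but the rise of 0.53 on the log2 scale (SE 0.30, edgeR adjusted p = 0.17) did not pass the test. DUSP8 had 93 counts and DUSP10 22 counts in the 15 libraries together. DUSP8 had 2.44, 0 and 10.2 CPM in PBS and 7.61, 25.1 and 15.1 under arsenite, with overlapping groups. DUSP10, a phosphatase of p38 and JNK, had 2.44, 0 and 2.55 CPM in PBS and 7.61, 5.02 and 3.77 under arsenite, from 10 arsenite counts in all, and was not tested.

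**Figure D1:**
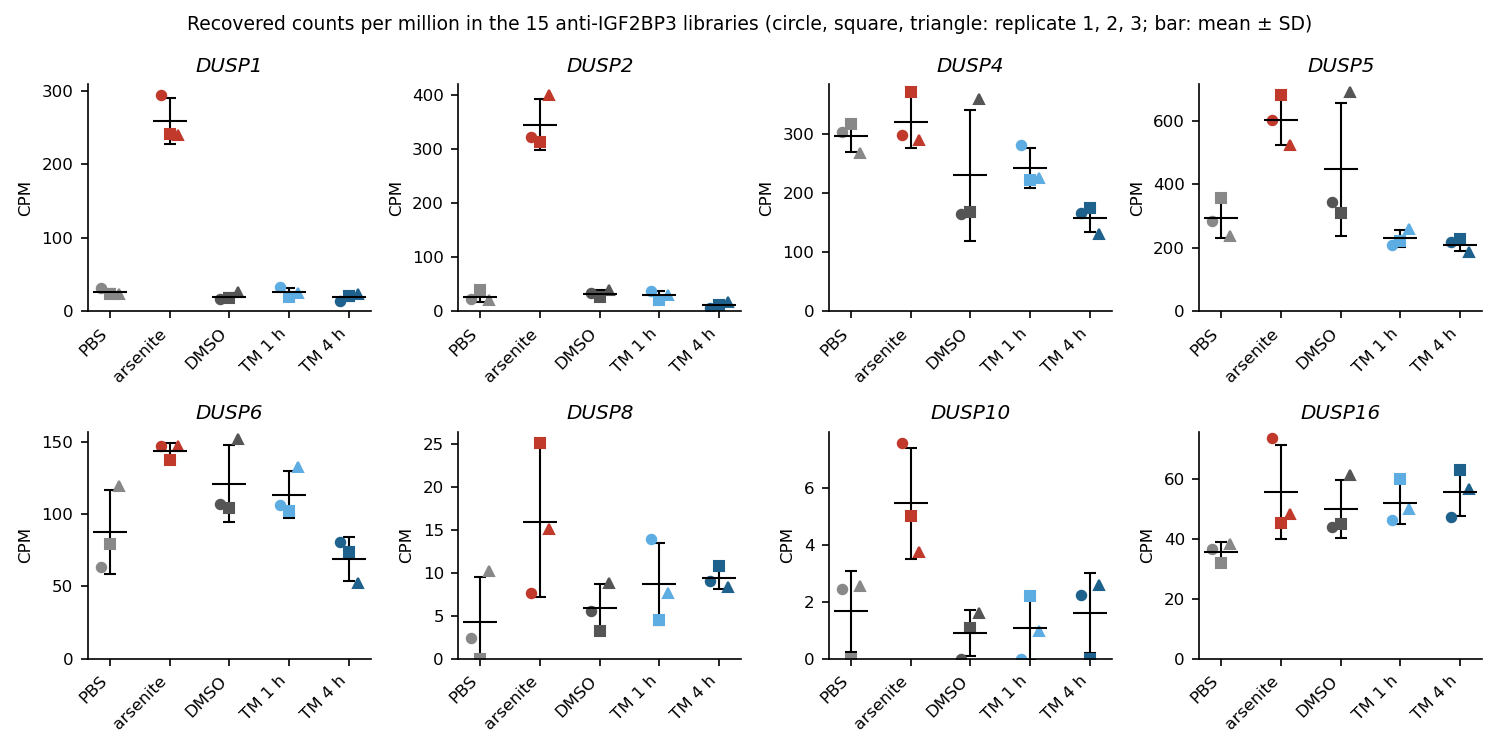
CPM of each member (vertical axis, starting at 0, own scale per gene) in the 5 conditions (horizontal axis), with circles, squares and triangles for replicates 1, 2 and 3 and bars for mean ± SD (n = 3). DUSP1 and DUSP2 are at 240 CPM or more in every arsenite library and at 39.7 or less elsewhere, and for DUSP4, DUSP5 and DUSP6 the triangle of DMSO lies above the other DMSO libraries.

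After 1 h of tunicamycin 1 member, DUSP5, was lower than in DMSO in edgeR's test, and the other 5 tested members lay between -0.20 and 0.20 on the log2 scale without passing it. In that comparison 0.408% of 8343 genes were lower and 0.551% changed in either direction. The median over the 6 tested members was -0.09 and over all tested genes 0.00. DUSP5 had 346, 309 and 690 CPM in DMSO and 208, 222 and 260 at TM 1 h. The groups did not overlap, and DMSO replicate 3 was about as high as the arsenite libraries. The log2 fold change was -0.98 (SE 0.15, edgeR adjusted p = 2.1e-05). Without DMSO replicate 3 it was -0.42 (edgeR adjusted p = 0.16), within the library set of replicates 1 and 2 it was -0.57 (edgeR adjusted p = 0.093), and under DESeq2 the adjusted p was 0.68, so the call rests on that library and on the test used.

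At TM 4 h, 4 of the 6 tested members were lower than in DMSO in the same edgeR fit, against 2.31% of 8343 genes lower, 2.79% higher and 5.11% changed in either direction. They were DUSP2, DUSP4, DUSP5 and DUSP6, with log2 fold changes from -1.22 to -0.71, and their median with DUSP1 and DUSP16 was -0.85, where that of all tested genes was 0.00. DMSO replicate 3 was the highest DMSO library for each of the 4. Without it 2 members passed, DUSP5 and DUSP6, and within the library set of replicates 1 and 2 alone 1 member passed, DUSP5.

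DUSP5 had 218, 227 and 186 CPM at TM 4 h, against the 346, 309 and 690 in DMSO. All TM 4 h libraries lay below all DMSO libraries. On the log2 scale the change was -1.20 (SE 0.14, edgeR adjusted p = 1.9e-09). It was -0.65 without DMSO replicate 3 (edgeR adjusted p = 8.7e-05) and -0.53 within the set of replicates 1 and 2 (edgeR adjusted p = 0.016), and the call held in all 12 alternative settings.

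DUSP6 had 107, 105 and 152 CPM in DMSO and 80.9, 73.8 and 52.2 at TM 4 h. The groups did not overlap. Its log2 fold change was -0.98 (SE 0.17, edgeR adjusted p = 2.6e-05). It was -0.72 without DMSO replicate 3 (edgeR adjusted p = 0.022) and -0.46 within the set of replicates 1 and 2 (edgeR adjusted p = 0.40), where the call was lost.

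DUSP2 had 32.9, 25.6 and 38.6 CPM in DMSO and 6.74, 12.1 and 17.4 at TM 4 h. The TM 4 h values are the lowest DUSP2 values of any condition, and all lay below the DMSO libraries. They rest on few counts, 3, 9 and 27 against 12, 24 and 48 in DMSO. The log2 fold change was -1.22 (SE 0.31, edgeR adjusted p = 0.0063), with edgeR adjusted p = 0.18 without DMSO replicate 3, where it was -0.99, and 0.15 within the set of replicates 1 and 2, where it was -1.46.

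DUSP4 had 165, 169 and 359 CPM in DMSO and 166, 176 and 131 at TM 4 h. The first pair of DMSO libraries lay within the range of the TM 4 h libraries. Its difference of -0.71 on the log2 scale (SE 0.15, edgeR adjusted p = 0.0011) became -0.14 without DMSO replicate 3 (edgeR adjusted p = 0.77), so this fall rests on that library. It also lost its call without TM 4 h replicate 3, at -0.53 (edgeR adjusted p = 0.071).

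DUSP1 and DUSP16 gave no call at TM 4 h. DUSP1 had 16.5, 18.1 and 25.8 CPM with the vehicle, 32.4, 20.0 and 24.9 after 1 h of TM and 13.5, 21.5 and 23.2 after 4 h, where the log2 fold change was -0.039 (95% interval -0.64 to 0.56, edgeR adjusted p = 0.97). DUSP16, a scaffold-binding phosphatase of JNK, had 43.9, 44.8 and 61.2 CPM with the vehicle, 46.3, 59.9 and 49.9 after 1 h and 47.2, 63.0 and 56.7 after 4 h, where the log2 fold change was 0.12 (95% interval -0.27 to 0.50, edgeR adjusted p = 0.83). The groups overlapped for both genes at both times. DUSP8 lay between 3.20 and 13.9 CPM and DUSP10 between 0 and 2.58 CPM over the 9 DMSO and TM libraries.

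**Figure D2:**
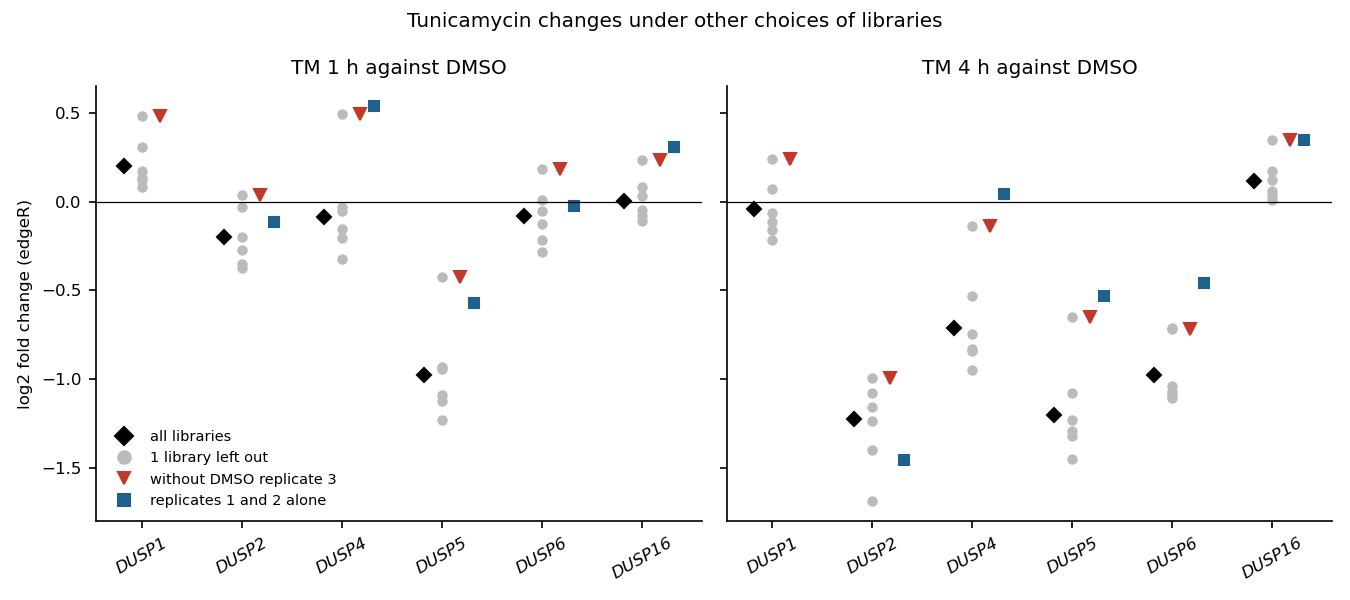
log2 fold change (vertical axis) of the 6 tested members at TM 1 h and TM 4 h against DMSO with all libraries (diamonds), with 1 library left out at a time (grey points), without DMSO replicate 3 (triangles) and within replicates 1 and 2 (squares, with no square for DUSP1, which failed the count filter there). DUSP5 stays below 0 in both panels, while DUSP4 at TM 4 h moves from -0.71 to -0.14 without DMSO replicate 3.

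The TM times were also set against each other, a comparison without DMSO. In edgeR's test 3 of the 6 tested members were lower at 4 h than at 1 h, against 5.99% of 8343 genes lower, 5.60% higher and 11.6% changed in either direction. DUSP6 went from 106, 102 and 132 CPM at 1 h to the 80.9, 73.8 and 52.2 at 4 h, a log2 difference of -0.90 (SE 0.18, edgeR adjusted p = 0.00025). DUSP4 went from 282, 222 and 225 CPM to 166, 176 and 131, a log2 difference of -0.62 (SE 0.17, edgeR adjusted p = 0.0072). DUSP2 went from 37.0, 20.0 and 30.7 CPM to 6.74, 12.1 and 17.4, a log2 difference of -1.02 (SE 0.34, edgeR adjusted p = 0.038). In each of the 3 genes all 4 h libraries lay below all 1 h libraries. These are the genes that the test called on the same counts, so the separation adds no support. The share of all genes separated in this way was not counted. Within the set of replicates 1 and 2, where DUSP1 was not tested, none of the other members passed in edgeR, with 2 at an unadjusted p under 0.05. There the difference was -0.43 for DUSP6 (edgeR adjusted p = 0.38), -0.50 for DUSP4 (edgeR adjusted p = 0.068) and -1.34 for DUSP2 (edgeR adjusted p = 0.19). The call of DUSP2 was lost in 6 of its 11 alternative settings, among them no filter on low counts (edgeR adjusted p = 0.058) and leaving out TM 1 h replicate 1 (0.082), TM 1 h replicate 3 (0.31), TM 4 h replicate 1 (0.10) or TM 4 h replicate 2 (0.095). That of DUSP4 was also lost without TM 4 h replicate 3 (edgeR adjusted p = 0.13), and that of DUSP6 without TM 1 h replicate 3 (0.070). DESeq2 on all libraries called 1 member, DUSP6, with no adjusted p given for DUSP1 and DUSP2. Without TM 1 h replicate 3 edgeR called 1. DUSP5, already low at 1 h, differed by -0.22 (SE 0.17, edgeR adjusted p = 0.45).

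The stresses were then compared through their own vehicles, with a test of the arsenite change of each gene minus its TM change. Against TM 4 h, 5 of the 6 tested members had the more positive change under arsenite, where 8.57% of 7796 genes did, 9.74% had the more negative change and 18.3% differed in either direction. The difference on the log2 scale was 5.09 for DUSP2 (SE 0.39, edgeR adjusted p = 1.4e-17), 3.26 for DUSP1 (SE 0.39, edgeR adjusted p = 8.5e-10) and 2.31 for DUSP5 (SE 0.22, edgeR adjusted p = 1.6e-13). It was 1.67 for DUSP6 (SE 0.26, edgeR adjusted p = 1.2e-06) and 0.85 for DUSP4 (SE 0.22, edgeR adjusted p = 0.0040). That of DUSP4 was 0.27 without DMSO replicate 3 (edgeR adjusted p = 0.39). For DUSP1, DUSP2, DUSP5 and DUSP6 the difference was called in all 17 alternative settings. DUSP16 differed by 0.40 (SE 0.36, edgeR adjusted p = 0.48).

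Against TM 1 h, 4 members had the more positive change under arsenite, where 10.7% of 7261 genes did and 21.6% differed in either direction. The differences were 4.09 for DUSP2 (SE 0.38, edgeR adjusted p = 1.3e-16), 3.04 for DUSP1 (SE 0.41, edgeR adjusted p = 1.9e-09), 2.10 for DUSP5 (SE 0.20, edgeR adjusted p = 1.7e-16) and 0.78 for DUSP6 (SE 0.25, edgeR adjusted p = 0.017). That of DUSP6 lost its call without PBS replicate 1, at 0.50 (edgeR adjusted p = 0.22), without DMSO replicate 3, at 0.51 (edgeR adjusted p = 0.19), and under DESeq2 (adjusted p = 0.10). DUSP5 was thus higher in arsenite and lower in both TM groups than in the vehicle of each, although its call at TM 1 h rested on DMSO replicate 3 and on the test used. Arsenite and TM were run in separate sets of libraries, and a set effect cannot be told apart from the stress beyond what each vehicle takes out. The differences from TM 4 h and TM 1 h share the PBS, arsenite and DMSO libraries.

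**Figure D3:**
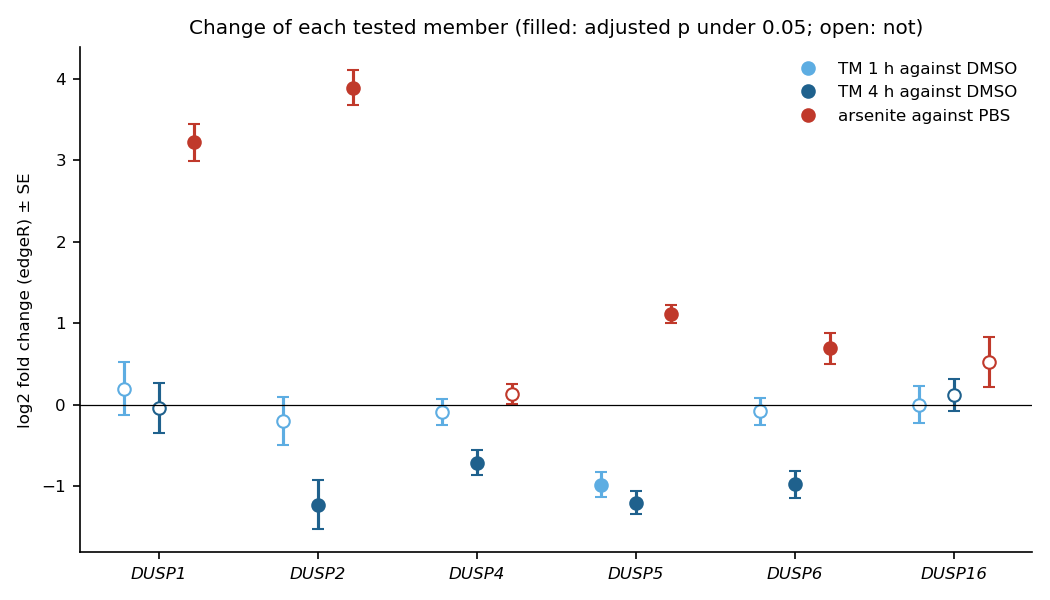
log2 fold change ± SE (vertical axis, from edgeR) of the 6 tested members at TM 1 h and TM 4 h against DMSO and under arsenite against PBS, with filled points for an adjusted p under 0.05. DUSP1 and DUSP2 reach 3.22 and 3.89 under arsenite, and DUSP5 lies at -0.98 and -1.20 in TM and at 1.11 in arsenite.

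Across the 5 conditions the order of mean CPM differed from gene to gene. PBS and arsenite were in another library set than DMSO and TM, with another vehicle and time. A step between these sides therefore cannot be told apart from set, vehicle or time. For DUSP1, TM 4 h (19.4 ± 5.18, SD, n = 3), DMSO (20.1 ± 4.95), TM 1 h (25.8 ± 6.25) and PBS (26.2 ± 4.82) did not differ beyond their spread, and arsenite (258 ± 31.2) stood apart. For DUSP2 the order was TM 4 h (12.1 ± 5.32), PBS (27.4 ± 10.8), TM 1 h (29.2 ± 8.61), DMSO (32.4 ± 6.53) and arsenite (345 ± 47.6), where again only the step to arsenite exceeded the spread of neighbours. For DUSP4, DUSP5 and DUSP6 each step from one condition to the next was within the spread, and TM 4 h was lowest and arsenite highest in all 3, at 158 ± 23.3 and 321 ± 44.6 for DUSP4, 210 ± 21.3 and 603 ± 78.6 for DUSP5 and 69.0 ± 15.0 and 144 ± 5.68 for DUSP6. DUSP16 was lowest in PBS (35.5 ± 3.34) and lay between 50.0 and 55.6 in the other conditions, which did not differ beyond their spread. DUSP8 had its lowest mean in PBS (4.21 ± 5.32) and its highest under arsenite (15.9 ± 8.78), with overlapping spreads, and DUSP10 its lowest in DMSO (0.892 ± 0.819) and its highest under arsenite (5.47 ± 1.96). Levels of different genes were not compared, since transcript lengths were not used here.

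The IgG libraries set the background of the immunoprecipitation, and the members were, over all conditions together, not a larger share of the anti-IGF2BP3 libraries than of these. All 5 IgG libraries together held 55 member counts of 52256, or 1053 CPM of the library totals (exact Poisson 95% interval 793 to 1370, counting error only), against 918 CPM in the anti-IGF2BP3 libraries together. By condition the IgG libraries held 12 member counts of 17503 in PBS, 16 of 9366 in arsenite, 9 of 7864 with DMSO, 4 of 5981 after 1 h of TM and 14 of 11542 after 4 h. The IgG cluster lists of PBS and arsenite carry names that run opposite to the samples they are attached to, so the IgG counts of these conditions, taken by the column names of the count table, could be exchanged. In arsenite the share was 1708 CPM in IgG (976 to 2774) and 1661 in anti-IGF2BP3. If exchanged, the arsenite IgG share would be 686 CPM (354 to 1198), below the anti-IGF2BP3 level, so the reading for arsenite depends on which name is right. At TM 4 h it was 1213 (663 to 2035) and 508.

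For single members the IgG counts were few. DUSP4 had 325 CPM in the pooled IgG libraries (190 to 521) and 232 in anti-IGF2BP3, DUSP5 268 (146 to 450) and 360, and DUSP6 211 (105 to 377) and 106. DUSP1 rested on 4 IgG counts and DUSP2 on 6. In arsenite 2 IgG counts of DUSP1 gave 214 CPM (25.9 to 771) beside 241, and 1 of DUSP2 gave 107 (2.70 to 595) beside 346. If the PBS and arsenite IgG libraries were exchanged, both genes would have 0 counts of 17503 there, with an upper limit of 211 CPM. At TM 4 h, where DUSP2 was lowest in the anti-IGF2BP3 libraries at 14.0 CPM, the IgG library held 4 counts, or 347 CPM (94.4 to 887). No test between antibodies was made. DUSP8 and DUSP10 had 0 IgG counts of 52256, with an exact Poisson upper limit of 70.6 CPM.

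**Figure D4:**
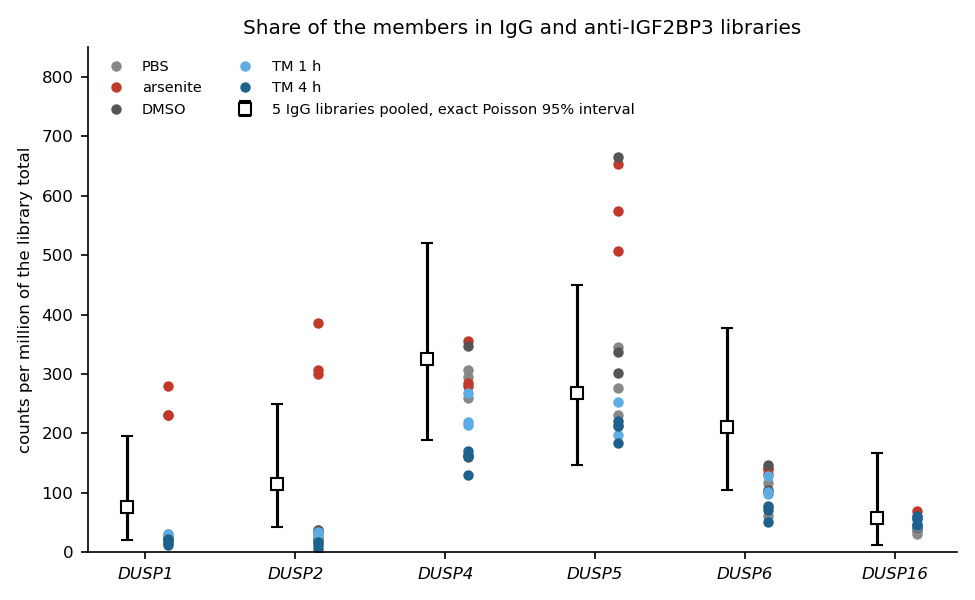
CPM of the library total (vertical axis) of 6 members in the 5 IgG libraries pooled (open squares, exact Poisson 95% interval) and in each of the 15 anti-IGF2BP3 libraries (points coloured by condition). The anti-IGF2BP3 values of DUSP4 and DUSP5 spread across an edge of the IgG interval, those of DUSP16 lie within it, and those of DUSP6 within or below it. Outside arsenite the DUSP2 points lie below the interval and the DUSP1 points within or below it. The arsenite points of DUSP1 and DUSP2 lie above this interval, which pools all 5 conditions. They lie within the intervals of the arsenite IgG library as labelled, 25.9 to 771 and 2.70 to 595.

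Called clusters, which need T-to-C conversions and are stricter than counts, showed where on these RNAs the recovered fragments with conversions lay. Whether IGF2BP3 was the protein linked at these places was not tested. Of 412563 clusters in the 20 lists, 327 lay in the members, all of them in anti-IGF2BP3 lists. The IgG lists held 440 clusters in all and 0 in the members. With so few IgG clusters, and so small a share of all clusters in the members, this 0 does not set the members apart from the background. DUSP5 had 130 clusters and DUSP4 76, each in all 15 libraries, DUSP6 had 59 in 13 libraries, DUSP2 27 in 4, DUSP1 26 in 7 and DUSP16 9 in 6. DUSP8 and DUSP10 had none called at these depths.

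In DUSP1 and DUSP2 most clusters came from arsenite libraries. DUSP1 (chr5:172768096-172771195, minus strand) had 20 of its 26 clusters there, 0 in PBS, 2 with DMSO, 1 after 1 h of TM and 3 after 4 h. DUSP2 (chr2:96143169-96145440, minus strand) had 25 of its 27 in arsenite and 2 in DMSO. The clusters outside arsenite lay in stretches that arsenite clusters also covered. In RPM (reads-per-million of a library's cluster reads), DUSP1 had 458, 273 and 221 in the arsenite libraries and DUSP2 449, 407 and 481, against 0 in all PBS libraries. Clusters were called library by library, and PBS was the shallowest group, so a called cluster and the depth of a library cannot be fully separated.

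The reads of DUSP1, DUSP2 and DUSP5 lay near the 3′ end of the gene. Within 1500 bases of that end were 98.6% of the cluster reads of DUSP1, 95.8% of DUSP2 and 94.7% of DUSP5 (chr10:110497907-110511533, plus strand). DUSP6 (chr12:89347235-89352501, minus strand) had 44.6% there and all of its reads within 4000 bases. DUSP4, on chromosome 8, had 11.5% within 1500 bases and 93.0% within 4000. DUSP16 (chr12:12473282-12562863, minus strand) had 0% within 1500 bases and 63.4% within 4000, from 82 reads. Exons and untranslated regions were not annotated here, so these distances are not placed in a part of the transcript.

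In DUSP5 a stretch of 1038 bases had clusters in all 15 libraries and 80.5% of the reads, and both DUSP5 windows shown above lie in it. In DUSP4 a stretch of 362 bases, 3521 to 3882 bases from the gene's end, had clusters in all 15 libraries and 71.8% of the reads. In DUSP2 a stretch of 608 bases held 70.2%. DUSP1 had 43.0% in a stretch of 167 bases, which holds its window, and 32.9% in another of 244 bases. DUSP6 was spread over 11 regions, with 33.0% in the largest, which holds its window and was covered in 12 libraries.

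The DUSP5 reads were somewhat less concentrated in that stretch under arsenite than in PBS or DMSO, although this was not tested. It took 71.4%, 68.9% and 72.5% of the DUSP5 cluster reads in the arsenite libraries, from 196, 366 and 539 reads. In PBS it took 87.0%, 75.0% and 100% from 92, 16 and 65 reads, and in DMSO 91.6%, 93.6% and 83.9% from 95, 267 and 846 reads. All arsenite libraries lay below all PBS and DMSO libraries, but narrowly. The highest arsenite share was 72.5% and the lowest PBS share 75.0%, the latter from 16 reads. The TM 1 h libraries had 100%, 80.8% and 87.4% and the TM 4 h libraries 72.3%, 83.2% and 78.3%, of which the 72.3% lay within the arsenite range. A pair of neighbouring regions 4379 to 4589 bases from the 3′ end had clusters in 3 of 3 arsenite libraries and in 0 PBS libraries. They were not particular to arsenite. The region farther from the end also had clusters in 1 DMSO and 2 TM 4 h libraries, and the nearer in 1 of each.

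The cluster reads of DUSP5 followed the gene counts. They were 376, 375 and 283 RPM in PBS and 899, 944 and 650 under arsenite, 463, 355 and 775 for DMSO, 137, 185 and 278 for the TM 1 h libraries and 242, 238 and 193 for those of TM 4 h. All arsenite libraries were above PBS, and all TM libraries were below all DMSO libraries, DMSO replicates 1 and 2 included. Groups did not overlap upward under arsenite in 14.3% of 1165 genes, and downward in 5.97% of 1959 genes at TM 1 h and 7.06% of 2875 at TM 4 h. DUSP4 had 319, 234 and 139 in PBS and 316, 345 and 250 under arsenite, with overlapping groups.

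**Figure D5:**
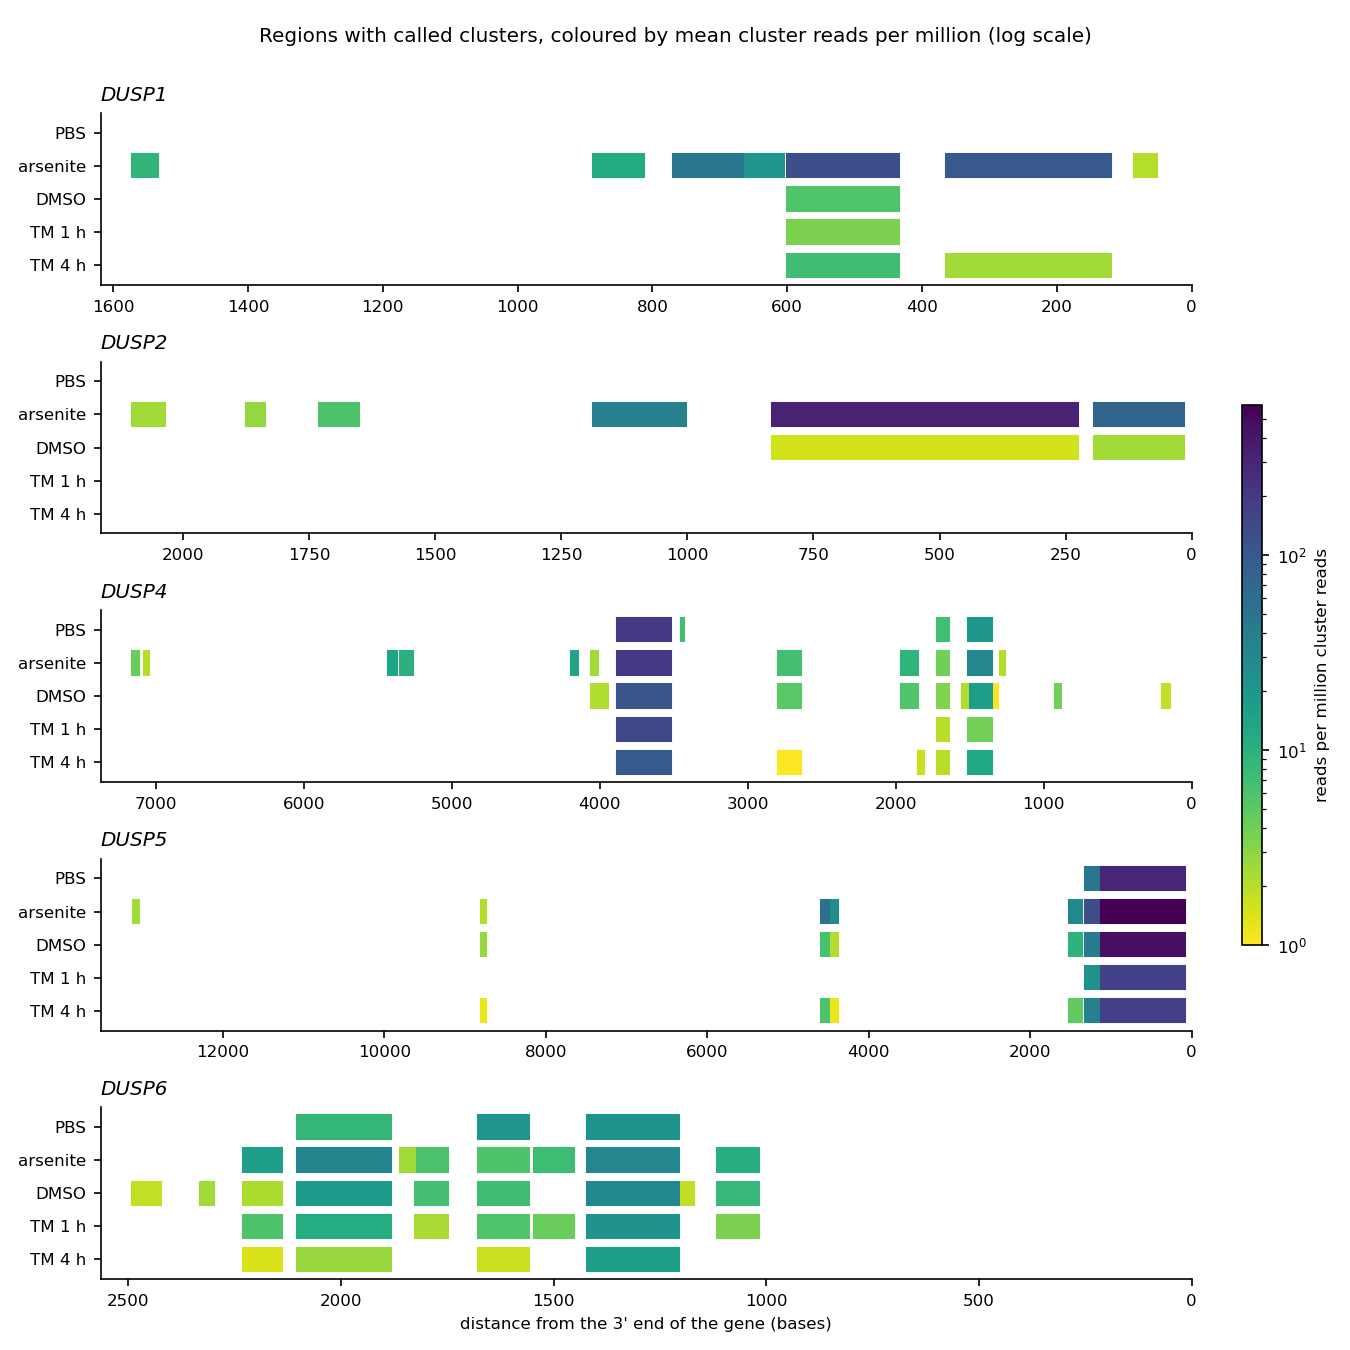
Regions with called clusters in 5 members by distance from the gene's 3′ end in bases (horizontal axis, 0 at the right), 1 lane per condition, coloured by the mean of 3 libraries in RPM on a log scale. DUSP1 and DUSP2 are covered mainly in the arsenite lane, while the regions of DUSP5 near the end and of DUSP4 at 3521 to 3882 bases are covered in every lane.

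The clusters of the members carried slightly more conversions than clusters in general. The share of conversion events among all events was 7.38% to 12.8% over the member clusters of a library and 7.58% to 8.81% over all clusters, and the members had the higher share in 13 of 15 libraries. Pooled over libraries it was 10.6% in DUSP4, 10.2% in DUSP2, 9.47% in DUSP16, 9.13% in DUSP1, 8.85% in DUSP5 and 8.61% in DUSP6, beside 7.98% over all clusters. Sites of 1 gene share their sequence, so these are descriptions.

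The share did not differ detectably between conditions. The PBS libraries had 9.86 ± 2.56%, the arsenite libraries 9.58 ± 0.181% (SD, n = 3, two-sided exact permutation p = 1, adjusted over 3 comparisons 1), 8.57 ± 0.687% with DMSO, 9.11 ± 1.60% for TM 1 h (exact permutation p = 0.6, adjusted 0.9) and 9.72 ± 1.57% at TM 4 h (exact permutation p = 0.4, adjusted 0.9). With 3 libraries per group no p below 0.1 was possible. PBS replicate 2 rested on 4 clusters and had the highest share of all, 12.8%. Without it the difference of arsenite from PBS was 1.18 points instead of -0.278, so the sign of this difference rests on that library.

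Words were counted in 30-base windows around the cluster modes, on the strand of the cluster. CATA, CATC or CATT occurred in 35.6% of 303 member windows and in 40.5% of 364271 windows of all clusters. By gene it occurred in 52.0% of 25 windows of DUSP1 and 42.0% of 69 of DUSP4, and in 19.2% of 26 of DUSP2 and 27.3% of 55 of DUSP6. GGAC, a word within the m6A consensus, was in 12.2% of member windows and 7.22% of all, with 23.2% in DUSP4. ATTTA was in 2.64% of member windows and 4.23% of all, with 3 of 25 windows in DUSP1 and 0 of 120 in DUSP5. TGTA, the start of the Pumilio motif, was in 8.91% of member windows and 11.7% of all, with 29.1% in DUSP6 and 4.17% in DUSP5. Both words were thus less frequent in the members together than in all windows. Windows of 1 gene overlap and recur across libraries, so the counts are not independent.

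Promoters were read from RefSeq (GRCh38.p14) as the 250 bases before the start, because DUSP1 and DUSP2 rose together under arsenite. The table held 7 promoters of 6 members, 2 of them of DUSP10. The promoters of DUSP4 and DUSP5 were not in it and could not be searched. The full cyclic AMP response element TGACGTCA, bound by CREB and ATF proteins, was searched on both strands. It was in the promoters of DUSP1 and DUSP8, not in that of DUSP2, and in 1.65% of 35116 promoters. The match of DUSP1, which begins 125 bases before the start, is shown with the element in capitals.
DUSP1 promoter (chr5:172771302-172771331, minus strand): ggcagggcgggTGACGTCAccgccccgtca
TGACTCA, the AP-1 word, was in 0 of the 7 and in 4.20% of all, and the CArG box in 0 and in 1.16%. GGGCGG, the GC box, which can overlap other matches, was in 6 of the 7 and in 42.6% of all. These are matches of letters within 250 bases and show no binding.

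The rest of the pathway could be followed only through the clusters, which were placed in genes by position, since the gene table could not be matched to symbols. The lists were taken with earlier results of these data known, and only genes with a cluster in all 6 libraries of a comparison were read. The background is the share of all such genes whose groups did not overlap, 14.3% upward and 33.6% downward of 1165 genes for arsenite, 6.23% upward and 5.97% downward of 1959 for TM 1 h, and 7.20% upward and 7.06% downward of 2875 for TM 4 h. No test was made on these values, and a share near the background is no result about a list.

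Among the feedback inhibitors of the ERK pathway, the Sprouty and SPRED proteins and ERRFI1, 3 of 8 genes could be read for arsenite and 1 was higher without overlap. It was SPRY4, from 294 ± 112 to 683 ± 92.6 RPM (SD, n = 3). Among 10 transcriptional targets of ERK signalling, 4 could be read for arsenite. FOSL1, an AP-1 subunit, went from 632 ± 85.7 to 1321 ± 219 without overlap. CCND1, cyclin D1, went from 5336 ± 1066 to 2874 ± 526 and PHLDA1 from 3661 ± 890 to 2157 ± 176, both downward without overlap. The median log2 ratio was -0.50 over the 4 genes and -0.35 over all genes read.

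The kinases themselves gave few such differences under arsenite. Of the 3 MAP kinases that could be read 1, MAPK13 (p38 delta), was lower without overlap, at 123 ± 15.7 RPM in PBS and 78.9 ± 44.6 under arsenite. In the RAS-RAF-ERK list 1 of 4, the adaptor SHC1, was lower without overlap, from 960 ± 116 to 722 ± 6.04. These counts lie near the downward background of 33.6%.

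At TM 4 h, 4 feedback inhibitors could be read, and SPRED1 was lower without overlap, from 178 ± 18.7 in DMSO to 134 ± 22.1. Of 7 ERK targets, FOSL1 was lower, from 608 ± 84.3 to 369 ± 46.6, and ETV5 higher, from 114 ± 2.87 to 169 ± 40.0, both without overlap. NRAS was lower without overlap, 1 of 6 in its list, from 858 ± 125 to 692 ± 27.8. At TM 1 h 2 of 4 feedback inhibitors were higher without overlap, SPRED1 at 235 ± 34.2 and SPRED2 at 557 ± 25.7 beside 494 ± 48.0 in DMSO. MYC, 1 of 7 ERK targets, was higher as well, from 542 ± 57.6 to 760 ± 39.7. Each of these separations was also there without DMSO replicate 3, where the DMSO mean was 168 for SPRED1, 481 for SPRED2, 604 for FOSL1, 115 for ETV5, 905 for NRAS and 519 for MYC. NRAS at TM 1 h, whose groups overlapped, was lower without overlap once that library was left out.

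For the other phosphatases, DUSP7, a cytoplasmic ERK phosphatase close to DUSP6, could be read at TM 4 h, with 76.5 ± 14.7 RPM in DMSO and 45.5 ± 20.5 at TM 4 h and overlapping groups, and DUSP9 had no cluster. Of 13 atypical dual-specificity phosphatases, which lack the MAP kinase binding domain, 3 could be read at TM 4 h, 2 at TM 1 h and 1 for arsenite, and none had groups without overlap.

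The gene whose changes were most like those of a member was looked for among the 3338 genes whose mean count reached 50, by the root mean square difference over the 3 log2 fold changes (TM 1 h, TM 4 h, arsenite). The changes of DUSP2 had no gene within 0.50, and the nearest, ENSG00000128016_7, was 0.64 away, with -0.94, -0.39 and 3.91. DUSP5 had 1 gene within 0.50, ENSG00000067082_15, at 0.39, with -0.46, -0.90 and 0.81. DUSP6 had 154 genes within that distance and DUSP4 1723. DUSP1 was left out, since its mean count was 46.3. The files do not pair these identifiers with names.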

How the data were processed

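The authors deposited a table of raw counts per gene for 20 libraries and, per library, a list of called clusters with reads and conversion events, per the file headers. Cluster lists also gave sequences and positions; 0 columns were left without a sample. The submitters' processing notes name bcl2fastq 2.20.0.422, UMI-tools 1.1.1, Trimmomatic 0.30, Bowtie 0.12.7 and featureCounts 2.0.1, and the builds GRCh38.p13 and hg38. The cluster caller is not given in the sources used here.

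Members were found by identifier, and members and gene lists were chosen with earlier results of these data known. Counts were tested over the whole table with edgeR 4.0.16 in R 4.3.3 (filterByExpr, TMM, quasi-likelihood, two-sided, Benjamini-Hochberg, threshold 0.05). The 9 DMSO and TM libraries shared 1 fit, the 6 PBS and arsenite libraries another, and the 12 libraries of each difference between stresses a further one. The SE is the log2 fold change divided by the root of the F statistic. The test was tested on simulated data. Intervals of 95% come from the SE by the normal approximation, or are exact Poisson for IgG.

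Clusters were placed by RefSeq gene bounds of GRCh38.p14; 525 of 525 clusters inside promoter windows had the same letters there. All 8 members are named; list genes with groups that did not overlap were named after their values were seen. The rule for list genes needed adjusted p-values by symbol, which the gene table did not give. DESeq2 1.42.0, other scalings, no filter, the replicate block and left-out libraries were the alternatives. Replicate pairs within groups differed by more than counting noise (chi-square per gene 1.16 to 1.69).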

Additional observations from a re-analysis of the deposited data

Results flagged for a closer look

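The effects of the stresses on a member differed in 9 tests of the difference itself (edgeR, Benjamini-Hochberg). Over all tested genes 18.3% differed for arsenite minus TM 4 h and 21.6% for arsenite minus TM 1 h. For arsenite minus TM 4 h the differences on the log2 scale were 3.26 for DUSP1, 5.09 for DUSP2, 0.85 for DUSP4, 2.31 for DUSP5 and 1.67 for DUSP6. For arsenite minus TM 1 h they were 3.04 for DUSP1, 4.09 for DUSP2, 2.10 for DUSP5 and 0.78 for DUSP6. That of DUSP4 fell to 0.27 without DMSO replicate 3 (edgeR adjusted p = 0.39). The call of DUSP6 against TM 1 h was lost in 3 of 17 alternative settings. The times of tunicamycin differed in 3 of 6 tested members, where 11.6% of all tested genes did, by -1.02 for DUSP2, -0.62 for DUSP4 and -0.90 for DUSP6. Within the library set of replicates 1 and 2 these were -1.34, -0.50 and -0.43, and none passed. The part of library set in the differences between the stresses was not tested.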

How the results depend on the processing

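DESeq2's Wald test called 6 genes at TM 1 h, 152 at TM 4 h, 491 between the TM times, 1233 for arsenite, 854 for arsenite minus TM 4 h and 868 for arsenite minus TM 1 h. Replicates 1 and 2 alone gave 16, 129 and 488 in the TM comparisons. Leaving out 1 library gave 13 to 41, 178 to 431 and 523 to 859 genes in the TM comparisons. Members called were 0 (DESeq2, 1 at an unadjusted p under 0.05) and 0 (replicates 1 and 2 in edgeR, 2 unadjusted) at TM 1 h, 2 and 1 at TM 4 h, and 1 and 0 between the TM times. With 1 library left out they were 0 to 1, 2 to 4 and 1 to 3; the 0 was without DMSO replicate 3. The cause was not tested. With the replicate number as a block the genes called were 43, 371 and 902 in the TM comparisons and 2111, 1247 and 1476 in the arsenite ones, with the same numbers of members. Same-numbered libraries correlated by -0.0547 to 0.0246 in their deviations from the group means, although number 3 also marks another library set in the TM series.

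Near 0, signs turned. With 1 library left out, the log2 fold change at TM 1 h ran from -0.37 to 0.039 for DUSP2, -0.33 to 0.49 for DUSP4, -0.29 to 0.18 for DUSP6 and -0.11 to 0.24 for DUSP16, each highest without DMSO replicate 3. At TM 4 h DUSP1 ran from -0.22 to 0.24, and DUSP4 in arsenite minus TM 1 h from -0.35 to 0.49. At TM 1 h DUSP4 was 0.054 under DESeq2 and 0.54 in replicates 1 and 2 alone, and DUSP16 -0.017 with no filter and -0.0063 with the replicate block. In replicates 1 and 2 alone DUSP4 was 0.041 at TM 4 h and DUSP5 0.044 between the TM times. The conversion share difference was -0.251 points at TM 1 h as a mean per cluster. With 1 library left out it ran from -0.173 to 1.40 at TM 1 h and from -1.24 to 1.18 under arsenite. The cause was not tested. DUSP8 and DUSP10 had too few counts to be tested.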
